A study of Mus musculus with 12 samples.

Results

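The comparison described here is that of donor CD8+ T cells from the liver between STAT3ko PD-1ko and WT donors. It comprises the 4 libraries of the count table whose names give the liver, the CD8+ subset and one or the other of these donors, 2 libraries in each group, among 12 libraries in all. The other 8 are the 2 STAT3ko CD8+ libraries, which entered the same fit and are shown beside the results, and 6 libraries of CD4+ T cells. Sequencing libraries of mRNA were made from total RNA, and reads were counted per gene.

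Recipients in every group were lethally irradiated BALB/c mice, given as WT in the sample titles. They received T cell-depleted bone marrow from WT C57BL/6 mice together with CD90.2+ T cells from the donor named. This is a model of acute graft-versus-host disease (GVHD) after hematopoietic cell transplantation (HCT). WT T cells came from C57BL/6 mice. STAT3ko T cells came from Stat3 fl/fl CD4-Cre mice, in which Cre driven by the Cd4 promoter deletes floxed Stat3 in CD4+ and CD8+ T cells, and STAT3ko PD-1ko donors carried in addition a germline deletion of PD-1. A Cre-only or a PD-1ko donor alone was not among the groups analysed here. H-2Kb+TCRβ+CD8+ cells were sorted on day 6 after HCT, and each library was made from lymphocytes combined from 3 recipients. Replicates are therefore pools, the p-values measure the spread between pools, and ages are not given in the sources used here. Total counts per library were 23493547 and 24551477 for WT, 24150842 and 24433942 for STAT3ko, and 21676125 and 23391413 for STAT3ko PD-1ko CD8+ T cells.

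PD-1, encoded by Pdcd1, is an inhibitory receptor that activated T cells express and that dampens T cell receptor (TCR) and CD28 signaling once it binds PD-L1 or PD-L2. STAT3 is a transcription factor that is phosphorylated downstream of receptors for IL-6, IL-21, IL-27 and related cytokines, and it induces feedback genes such as Socs3. In acute GVHD, alloreactive CD8+ T cells enter the liver, where they use integrins and chemokine receptors to lodge and granzymes, perforin and death ligands to kill.

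The targeted genes were examined first. Stat3 (chr11:100886806-100939540, mm10) was present at 396 and 387 CPM in the WT libraries, 148 and 136 in STAT3ko, and 154 and 238 in STAT3ko PD-1ko. CPM are read counts scaled to the size of each library after TMM normalization. All 4 libraries from donors with Stat3 targeted in T cells lay below both WT libraries, and STAT3ko PD-1ko differed from WT at log2 fold change -0.996 ± 0.20, adjusted p = 0.0177. Errors of fold changes are approximate standard errors throughout. Each is the absolute log2 fold change divided by the square root of its quasi-likelihood F statistic. Pdcd1 (chr1:94038305-94052553) was present at 375 and 309.7 CPM in the WT libraries, 422 and 458 in STAT3ko, and 93.95 and 66.5 in STAT3ko PD-1ko, and was lower than in WT, with log2 fold change -2.09 ± 0.19, adjusted p = 0.00243. The STAT3ko libraries were the highest for Pdcd1 and the STAT3ko PD-1ko libraries the lowest, with no overlap. Both genes retained reads, and counts summed per gene cannot tell deleted exons from those left in place. Below, groups that lack Stat3 and pools without PD-1 are named by the genotype of the donors.

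The sorted cells carried the markers of CD8+ T cells. The 11 markers of that list summed to 8479.7 and 8669.7 CPM in WT, 7794 and 8454 in STAT3ko, and 5915 and 6049 in STAT3ko PD-1ko libraries, led by Thy1, and 6 of the 11 passed as lower in STAT3ko PD-1ko cells, among them Cd8a and Cd8b1. Most defining genes of other liver cells were at or near 0: Alb, Apoa1 and Ttr of hepatocytes, Adgre1 of Kupffer cells, Cdh5 and Kdr of endothelial cells, Cd79a of B cells, Ncr1 of NK cells and Flt3 and Xcr1 of dendritic cells were all under 1 CPM in all 6 libraries, and Ms4a1 of B cells was at 0. Clec4f and C1qa of Kupffer cells reached more than 1 CPM in the replicate 2 libraries of WT (1.49 and 1.97) and STAT3ko (1.03 and 1.07), and the Kupffer cell and macrophage list without its most abundant gene, Cd68, summed to 1.20 and 13.6 CPM in WT, 0.730 and 9.14 in STAT3ko, and 1.11 and 1.20 in STAT3ko PD-1ko libraries. WT replicate 2 and STAT3ko replicate 2 thus stood apart from the other 4 libraries in these genes, and the part of this in the results was not tested. The number of genes that passed against WT without WT replicate 2, and against STAT3ko without STAT3ko replicate 2, is given below. Stab2 of endothelial cells, Zbtb46 of dendritic cells and Cd4 also passed 1 CPM in 1 or 2 libraries, and Epcam of cholangiocytes lay between 8.57 and 13.2 CPM. The 24 hepatocyte genes summed to 2.22 and 6.68 CPM in WT, 1.76 and 3.50 in STAT3ko, and 4.30 and 7.12 in STAT3ko PD-1ko libraries, led by Trf, and none of the 5 that could be tested passed. The dendritic cell list summed to 391.6 and 366 CPM in WT, 220.1 and 245 in STAT3ko, and 28.5 and 21.99 in STAT3ko PD-1ko libraries, and nearly all of this was Itgax, which activated CD8+ T cells also express. The NK cell list, at 48.95 and 56.8 CPM in WT, 29.2 and 52.97 in STAT3ko, and 23.03 and 11.4 in STAT3ko PD-1ko libraries, was nearly all Klrb1c. The 4 genes of CD4+ T cells summed to 93.2 and 88.4 CPM in WT, 94.9 and 123 in STAT3ko, and 73.5 and 54.01 in STAT3ko PD-1ko libraries, led by Zbtb7b, and 1 of them, Foxp3, the factor of regulatory T cells, fell from 23.7 and 13.8 to 7.32 and 9.07 CPM, with 18.2 and 28.95 in STAT3ko libraries (log2 fold change -1.19 ± 0.32, adjusted p = 0.0458; log2 fold change -0.76 without WT replicate 1). In bulk RNA, fewer cells of a kind and less RNA per cell cannot be told apart, and this applies to every difference given below.

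Of 12002 genes tested, 2066 differed between STAT3ko PD-1ko and WT CD8+ T cells at an adjusted p under 0.05 in edgeR's quasi-likelihood test, which is 17.2% of the genes tested. Of these, 1081 (9.01%) were higher and 985 (8.21%) were lower in STAT3ko PD-1ko cells. A change of at least 2-fold was found for 791 of them, 408 higher and 383 lower. The median absolute log2 fold change among the 2066 was 0.83, and the biological coefficient of variation was 0.169 with 3 residual degrees of freedom. Libraries of the 2 groups did not overlap for any of the 2066, but this held for 59.8% of all genes tested, so that lack of overlap alone says little with 2 libraries a side. Scaled by library totals alone, 2250 genes passed, 1458 higher and 792 lower, so the share of higher calls moved from 52.3% to 64.8%. DESeq2 called 2725 genes, 1366 higher and 1359 lower. With the replicate number shared by the groups as a block (the replicate block), which no label gives as a batch, 2965 passed, 1517 higher and 1448 lower.

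The number of calls depended on which pools were in the fit. It was 1107 without WT replicate 1, 674 without WT replicate 2, 835 without STAT3ko PD-1ko replicate 1, and 111 without STAT3ko PD-1ko replicate 2, where the lone library of a group is taken to vary like the other groups. None of the 2066 genes changed sign in any of these fits that tested it. The fit without STAT3ko PD-1ko replicate 2 tested 2065 of them. Of the 226 genes that passed and whose values are printed here, 38 passed without any 1 of the 6 CD8+ libraries: B4galnt4, Bcl2, Ccl5, Ccr2, Cd38, Ctse, Dclk1, Eno3, F2rl1, Fgl2, Gldc, Gsn, Gzma, Igfbp7, Itga1, Itga2, Itgam, Itgax, Itgb3, Klrc1, Lad1, Lair1, Maf, Mamdc2, Mcm10, Ndrg1, Pdcd1, Prxl2a, Rasgrp1, Rgs10, S100a6, Stat3, Tanc2, Tnfsf8, Tpi1, Wdr95, Wnt10b and Xaf1. The other 188 did not pass without STAT3ko PD-1ko replicate 2. For each gene list below, the number that passed is followed in parentheses by the numbers that passed without WT replicate 1, WT replicate 2, STAT3ko PD-1ko replicate 1 and STAT3ko PD-1ko replicate 2, in this order. These counts are over the whole list, and the genes behind them need not be those named. Where no member passed in 1 direction, the numbers for that direction are left out, and calls that way in these fits are mentioned in words. The median log2 fold change of a list may be set beside that of all genes tested, which was -0.0006. Where leaving out 1 of the 4 libraries moved a median by more than 1.5 times or turned its sign, the value without it follows in parentheses. The share of members called was below the 17.2% of all genes for immediate early (6.67%), MHC (16%), BCL2 family (12.1%), hypoxia (5.26%), cholesterol (13.3%), OXPHOS (6.67%), proteasome (5.41%), cytosolic ribosomal (3.7%) and mitochondrial ribosomal genes (14.5%). It was close to that share for effector cytokines and chemokines (18.2%) and for the STAT family and its feedback genes (21.1%). Nothing is read from the counts of any of these lists.

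**Figure D1:**
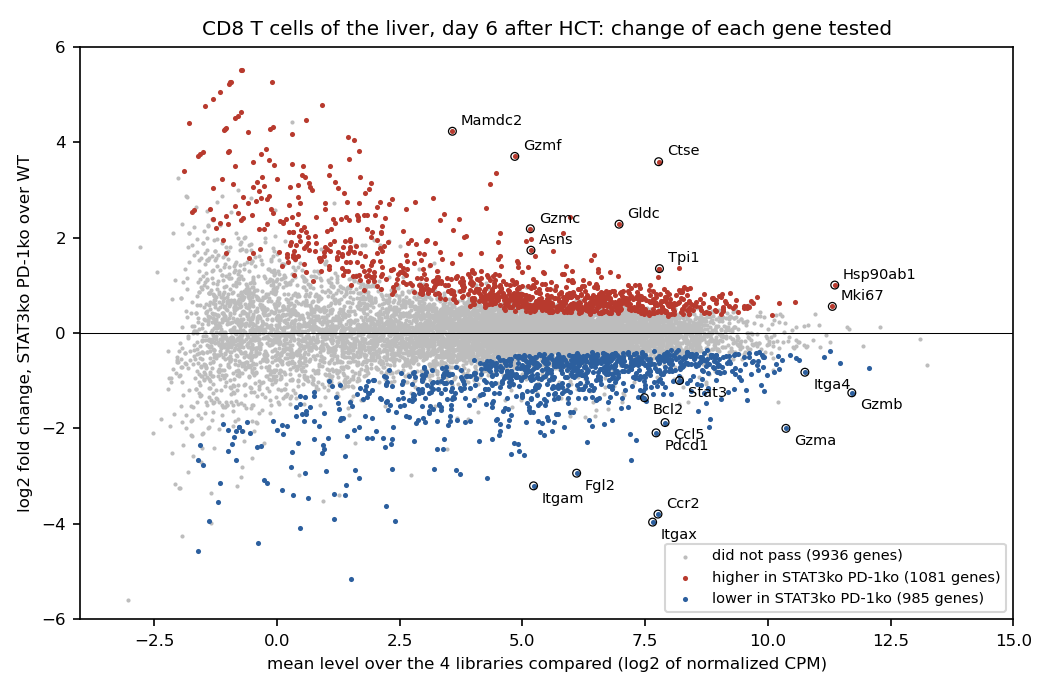
Each point is 1 of the 12002 genes tested. The x axis is its mean normalized CPM over the 4 libraries compared (log2) and the y axis its log2 fold change of STAT3ko PD-1ko over WT CD8+ T cells. Genes beyond the limits of the y axis, such as Rbm44, are counted but not drawn. Red points are the 1081 genes that passed as higher, blue points the 985 that passed as lower and grey points the rest, and circles with names mark genes described in the text, from Mamdc2 at 4.23 to Itgax at -3.97.

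Genes that rose the most in STAT3ko PD-1ko CD8+ T cells, among those whose mean log2 CPM was 3 or more, included several that were scarce in WT cells. Mamdc2 was present at 1.07 and 1.33 CPM in the WT libraries, 1.37 and 1.24 in STAT3ko, and 21.2 and 24.1 in STAT3ko PD-1ko, with log2 fold change 4.23 ± 0.23, adjusted p = 0.000901. Ctse (chr1:131638314-131675507), which encodes the aspartic protease cathepsin E, was present at 28.3 and 38.7 CPM in the WT libraries, 19.8 and 22.1 in STAT3ko, and 391.8 and 418 in STAT3ko PD-1ko, with log2 fold change 3.59 ± 0.18, adjusted p = 0.000781. Both genes were low in WT and STAT3ko pools alike and more than 10-fold higher in both STAT3ko PD-1ko pools. Gldc, which encodes the glycine-cleaving dehydrogenase of mitochondria, was at 40.9 and 44.5 CPM in WT, 40.7 and 29.5 in STAT3ko and 197 and 219 in STAT3ko PD-1ko libraries (log2 fold change 2.28 ± 0.18, adjusted p = 0.00197). The other genes with the largest rises were Gzmf, a granzyme described below, Dclk1 (log2 fold change 3.35), a doublecortin-like kinase, Lad1 (3.13), Wnt10b (2.82), a secreted WNT ligand, Igfbp7 (2.62), a secreted IGF-binding protein, Lrp1 (2.49), an endocytic receptor, Prxl2a (2.43), Rab4a (2.39), a GTPase of recycling endosomes, and Serpine2 (2.36), a protease inhibitor. In all 12 genes both STAT3ko PD-1ko libraries were above the 4 other libraries.

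The largest falls included an integrin and a chemokine receptor. Itgax (chr7:128129550-128150657), which encodes the integrin CD11c, was at 391 and 366 CPM in the WT libraries, 219 and 245 in STAT3ko, and 27.9 and 20.5 in STAT3ko PD-1ko, with log2 fold change -3.97 ± 0.18, adjusted p = 0.000767. Ccr2 (chr9:124102183-124109140), a chemokine receptor of effector T cells and monocytes, was at 360.3 and 449.6 CPM in the WT libraries, 174 and 228 in STAT3ko, and 42.4 and 15.9 in STAT3ko PD-1ko, with log2 fold change -3.80 ± 0.44, adjusted p = 0.00483. For both genes the STAT3ko libraries lay between WT and STAT3ko PD-1ko, and all 3 groups were separate. Fgl2, a fibrinogen-like protein that T cells secrete, was at 108 and 135 CPM in WT, 55.6 and 86.2 in STAT3ko and 17.3 and 14.46 in STAT3ko PD-1ko libraries (log2 fold change -2.94 ± 0.24, adjusted p = 0.00226). Itgam, F2rl1 (-3.05), a protease-activated receptor, Zfp831 (-2.88), Dtx4 (-2.86, -1.62 without WT replicate 1), Gsn (-2.55), the actin-severing gelsolin, Wdr95 (-2.53) and Galnt10 (-2.47), which starts O-glycosylation, were also among the 12. B4galnt4, a glycosyltransferase, was low in both groups that lack Stat3, at 22.6 and 24.7 CPM in WT, 4.68 and 5.56 in STAT3ko and 4.13 and 1.95 in STAT3ko PD-1ko libraries (log2 fold change -2.97 ± 0.34, adjusted p = 0.00452). Dtx4 varied widely between the WT pools, at 25.5 and 6.80 CPM.

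**Figure D2:**
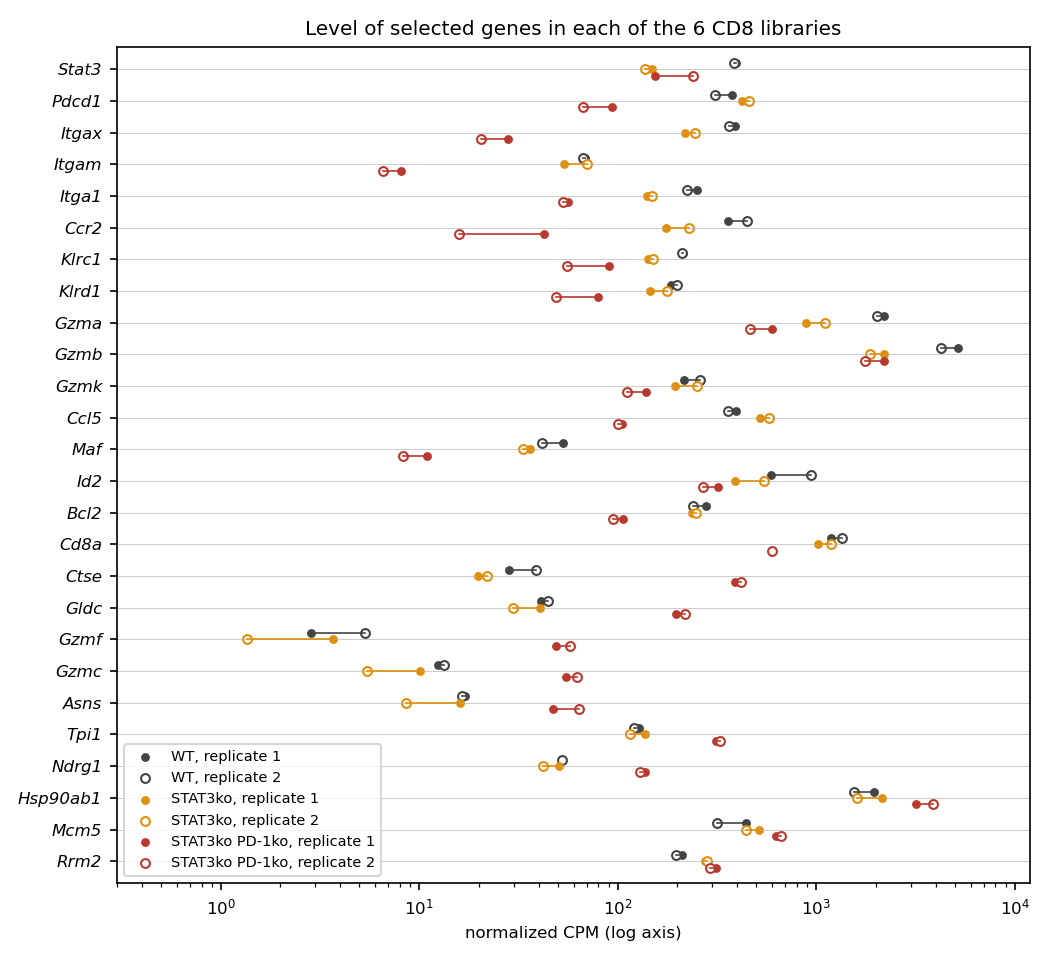
Normalized CPM (log axis) of 26 genes described in the text in each of the 6 CD8+ libraries; filled circles are replicate 1, open circles replicate 2, and a line joins the 2 libraries of a group (WT dark grey, STAT3ko orange, STAT3ko PD-1ko red). The red pairs of Itgax, Itgam and Ccr2 sit far to the left of the WT pairs, those of Ctse, Gzmf and Gldc far to the right, and those of Gzmb overlap the orange pair.

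Most integrins were lower in STAT3ko PD-1ko CD8+ T cells. Of 17 listed integrin genes, 16 were tested, 13 were lower, and 10 passed as lower (6, 7, 7 and 4), against 1 that passed as higher in all these fits; the median was -0.55. Itgam, the CD11b chain that pairs with Itgb2, was at 68.1 and 67.2 CPM in the WT libraries, 53.9 and 70.4 in STAT3ko, and 8.08 and 6.59 in STAT3ko PD-1ko, with log2 fold change -3.21 ± 0.19, adjusted p = 0.000901. Itga1, the collagen-binding CD49a chain found on liver-resident T and innate lymphoid cells, was at 251 and 223 CPM in the WT libraries, 139.9 and 148 in STAT3ko, and 55.96 and 52.9 in STAT3ko PD-1ko, with log2 fold change -2.12 ± 0.12, adjusted p = 0.000901. The STAT3ko libraries overlapped WT for Itgam and lay between the other groups for Itga1. Itga2 (log2 fold change -1.65), Itgae (-2.87), the CD103 chain, Itga4 (-0.82), Itga6 (-0.59), Itgb2 (-0.51), Itgal (-0.46), which forms LFA-1 with Itgb2, and Itgb7 (-0.44) fell as well. Itga4 was the most abundant of these, at 2309.5 and 2104 CPM in WT, 2886 and 2832 in STAT3ko and 1405 and 1091 in STAT3ko PD-1ko libraries. Itgb3, the β chain of the vitronectin receptor, rose from 159 and 166 CPM in WT to 365 and 476 in STAT3ko PD-1ko libraries, with 266 and 252 in STAT3ko libraries between them (log2 fold change 1.37 ± 0.14, adjusted p = 0.00393). Itgb3 lies within 5 Mb of Stat3 on chromosome 11, a stretch of the genome treated further below.

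Chemokine receptors were also lower more often than higher. Of 22 listed, 18 were tested, and 12 were lower. 6 passed as lower (4, 7, 6 and 2) and 2 as higher (1, 1, 0 and 0), with a median of -0.61 (-0.32 with WT replicate 1 left out, -0.93 with WT replicate 2 left out and -1.07 with STAT3ko PD-1ko replicate 1 left out). Cxcr6, a receptor of liver-resident T cells, was at 509 and 649 CPM in WT, 400.0 and 518 in STAT3ko and 249 and 127 in STAT3ko PD-1ko libraries (log2 fold change -1.63 ± 0.31, adjusted p = 0.016). For Cxcr6, STAT3ko PD-1ko replicate 2 was the lowest library of all. Cxcr3 (-0.92), the receptor for interferon-induced chemokines, Cx3cr1 (-1.27, -0.84 without STAT3ko PD-1ko replicate 2), a marker of differentiated effector cells, and S1pr4 (-0.61) fell, and the STAT3ko libraries were above both WT libraries for Cx3cr1, at 73.1 and 87.4 against 54.01 and 35.6 CPM. Ccr8 rose from 4.30 and 2.49 CPM in WT to 15.9 and 10.1 in STAT3ko PD-1ko libraries (log2 fold change 1.94 ± 0.34, adjusted p = 0.0128), and Ccr4 rose from 0.888 and 0.925 to 2.75 and 2.69 CPM (log2 fold change 1.58 ± 0.31, adjusted p = 0.0175). Both are receptors better known from type 2 helper and regulatory T cells.

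NK cell lectin receptors and their adaptors, which effector CD8+ T cells also carry, were lower almost without exception. Of 26 listed, 18 were tested and 17 of these were lower, with a median of -1.42; 11 passed as lower (8, 6, 8 and 1) and none as higher. Klrc1, which encodes NKG2A, was at 214 and 211 CPM in the WT libraries, 142 and 150.1 in STAT3ko, and 89.9 and 55.7 in STAT3ko PD-1ko, with log2 fold change -1.55 ± 0.21, adjusted p = 0.00715. Its partner Klrd1, which encodes CD94, was at 185 and 199 CPM in WT, 145 and 177 in STAT3ko and 79.97 and 48.8 in STAT3ko PD-1ko libraries (log2 fold change -1.58 ± 0.23, adjusted p = 0.00841). Hcst (-1.48), the DAP10 adaptor of NKG2D, Cd226 (-0.82), an activating receptor, and Klrb1c (-1.62), which encodes NK1.1, also fell. Klra3 (-3.19) and Klrb1f (-2.39) fell from levels under 10 CPM. The reads of the Klra genes may be divided among near-identical copies, so that the value of 1 Klra gene is uncertain. The NK cell marker Ncr1 stayed under 1 CPM in all 6 libraries.

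The cytotoxic granule genes split. Of 21 listed, 19 were tested; 8 passed as lower (7, 8, 7 and 1) and 4 as higher (4, 4, 2 and 0), with a median of -0.29 (-0.15 with WT replicate 1 left out, -0.45 with WT replicate 2 left out, -0.69 with STAT3ko PD-1ko replicate 1 left out and -0.19 with STAT3ko PD-1ko replicate 2 left out), which was -0.708 with at least 10 counts in every library. Gzma (chr13:113093824-113100981) was at 2200.5 and 2028 CPM in the WT libraries, 893 and 1112 in STAT3ko, and 596 and 462 in STAT3ko PD-1ko, with log2 fold change -2.000 ± 0.16, adjusted p = 0.00224. Gzmb (chr14:56258836-56262334), among the 10 most abundant genes of these cells, was at 5202 and 4238 CPM in the WT libraries, 2206 and 1859 in STAT3ko, and 2198 and 1761 in STAT3ko PD-1ko, with log2 fold change -1.25 ± 0.16, adjusted p = 0.00529. For Gzma the STAT3ko libraries lay between the other groups, whereas for Gzmb they overlapped the STAT3ko PD-1ko libraries, and the difference between those 2 groups was -0.04 ± 0.15 (adjusted p = 0.885). Per length, WT cells held 3156 ± 487 RPKM of Gzmb and 2425 ± 164 RPKM of Gzma (SD, n = 2), and STAT3ko PD-1ko cells held 1342 ± 223 and 615 ± 116 RPKM. Gzmk, typical of less differentiated effector cells, was at 215 and 259 CPM in WT, 193 and 250.3 in STAT3ko and 139 and 111 in STAT3ko PD-1ko libraries (log2 fold change -0.92 ± 0.18, adjusted p = 0.0172). Tnfsf10, the death ligand TRAIL (-1.29), Ctsw (-1.06), Nkg7 (-0.85), which is needed for granule release, Gzmm (-1.51) and Srgn (-0.72), the proteoglycan core of granules, fell too. Fasl passed as lower in other fits only, among them the one with the replicate block (adjusted p = 0.00236). Perforin, Prf1, was at 425 and 348 CPM in WT and 373 and 258 CPM in STAT3ko PD-1ko libraries and did not pass (adjusted p = 0.313), nor did Fasl (log2 fold change -1.29, adjusted p = 0.0536), although Fasl passed as lower with all genes of at least 1 count (adjusted p = 0.00772), in the fit of the 4 libraries alone (0.0261), without STAT3ko replicate 1 (0.0266) or 2 (0.0263) and without WT replicate 2 (0.0362).

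The granzymes that rose are the neighbors of Gzmb on chromosome 14. Gzmc was at 12.4 and 13.4 CPM in the WT libraries, 10.1 and 5.44 in STAT3ko, and 54.9 and 62.6 in STAT3ko PD-1ko, with log2 fold change 2.19 ± 0.27, adjusted p = 0.00511. Gzmf (chr14:56205263-56211407) was at 2.84 and 5.31 CPM in the WT libraries, 3.69 and 1.36 in STAT3ko, and 49.04 and 57.8 in STAT3ko PD-1ko, with log2 fold change 3.71 ± 0.44, adjusted p = 0.00493. The STAT3ko libraries were below WT for Gzmc and overlapped WT for Gzmf, and only the pools without PD-1 were high. Gzmd rose from 0.0444 and 0.161 to 1.55 and 1.66 CPM and Gzme from 0 and 0.241 to 2.40 and 2.32 CPM, levels at which WT libraries held few reads. These granzymes are close paralogs, and reads shared among them may be divided by the counting.

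Among effector cytokines and chemokines, 22 of 26 were tested, 14 were lower, 4 passed as lower (4, 3, 3 and 2) and none as higher, and the median was -0.34 (-0.16 with WT replicate 1 left out, -0.86 with STAT3ko PD-1ko replicate 1 left out and -0.07 with STAT3ko PD-1ko replicate 2 left out), which was -0.208 with at least 10 counts in every library. Ccl5 (chr11:83525779-83530518), the chemokine that effector CD8+ T cells store and release, was at 395 and 359 CPM in the WT libraries, 518 and 580.1 in STAT3ko, and 105 and 99.9 in STAT3ko PD-1ko, with log2 fold change -1.88 ± 0.12, adjusted p = 0.00115. The STAT3ko libraries were the highest and the STAT3ko PD-1ko libraries the lowest. Tnfsf8, the CD30 ligand, fell from 12.4 and 13.6 to 3.59 and 4.51 CPM (log2 fold change -1.68 ± 0.20, adjusted p = 0.00511), as did Il16 (-0.75). Il17a was scarce, at 2.53 and 1.37 CPM in WT and 0.266 and 0.124 in STAT3ko PD-1ko libraries (log2 fold change -3.29 ± 0.61, adjusted p = 0.0152 against WT). Its level was similarly low in STAT3ko libraries, at 0.301 and 0.124 CPM. Ifng, Tnf and Ccl3 did not pass. The 18.2% of the list called was close to the 17.2% of all genes tested, and without WT replicate 2 calls went both ways.

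Besides Pdcd1, 5 of 19 inhibitory receptors tested fell (3, 3, 4 and 1), 21 being listed, and none rose; 17 of the 19 were lower, with a median of -0.36. Lair1, a collagen receptor, was at 40.1 and 43.7 CPM in WT, 31.3 and 31.5 in STAT3ko and 17.7 and 15.7 in STAT3ko PD-1ko libraries (log2 fold change -1.33 ± 0.13, adjusted p = 0.00333). Btla was at 93.5 and 115, 73.2 and 93.1 and 50.2 and 41.9 CPM in the same order (log2 fold change -1.18 ± 0.18, adjusted p = 0.00859). Lag3, which binds MHC class II, was at 319 and 302, 239 and 233 and 212 and 208 CPM (log2 fold change -0.56 ± 0.10, adjusted p = 0.0138). In all 3 receptors both STAT3ko PD-1ko libraries were the lowest. Vsir (-0.79) and Cd96 (-0.48) fell as well, whereas Havcr2, Tigit and Ctla4 did not pass.

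Of 24 transcription factors of effector and exhausted CD8+ T cells, all tested, 17 were lower, 6 fell (2, 4, 3 and 1) and none rose; the median was -0.43 (0.001 with WT replicate 1 left out and -0.68 with STAT3ko PD-1ko replicate 1 left out). Maf was at 52.99 and 41.6 CPM in the WT libraries, 35.9 and 33.3 in STAT3ko, and 10.9 and 8.28 in STAT3ko PD-1ko, with log2 fold change -2.30 ± 0.19, adjusted p = 0.00226. Id2, which sustains effector differentiation, was at 595 and 937 CPM in WT, 391.9 and 546 in STAT3ko and 320.2 and 267 in STAT3ko PD-1ko libraries (log2 fold change -1.38 ± 0.25, adjusted p = 0.0135). Tox2 (-1.10), Ikzf3 (-0.64), Nfatc2 (-0.64) and Nfatc1 (-0.48), the calcium-dependent factors downstream of the TCR, fell. Tox, which establishes exhaustion, had a log2 fold change of 0.50 (adjusted p = 0.0801, and 0.0274 with the replicate block). Eomes had one of -0.49 (adjusted p = 0.067, and 0.0389 with the replicate block). Neither passed, but both did in DESeq2 (adjusted p = 0.0427 for Tox and 0.037 for Eomes), and Tox also with scaling by library totals (0.0354) and without WT replicate 1 (0.0471).

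Genes of memory, stemness and lymph node homing were lower in 21 of 24 members, all tested. 8 passed as lower (6, 6, 3 and 0) and 1 as higher (1, 0, 0 and 0), with a median of -0.63. Ly6c2 was at 239.5 and 333 CPM in WT, 164 and 208 in STAT3ko and 116 and 121 in STAT3ko PD-1ko libraries (log2 fold change -1.27 ± 0.19, adjusted p = 0.00844). Klf3 (-1.34), Bcl6 (-2.16), Satb1 (-0.87), S1pr1 (-0.87, -0.56 without WT replicate 1), the receptor for exit from tissue, and Cd44 (-0.66) fell. The STAT3ko libraries were above WT for Klf3, at 89.5 and 98.6 against 48.4 and 42.6 CPM. Myb, a factor of stem-like CD8+ T cells, was the member that rose, from 67.01 and 50.01 to 103 and 99.4 CPM (log2 fold change 0.79 ± 0.19, adjusted p = 0.029). Tcf7, at 26.8 and 30.4 CPM in WT and 11.98 and 23.2 in STAT3ko PD-1ko libraries, did not pass (adjusted p = 0.128).

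Most components of the TCR complex and its proximal signaling chain had lower fitted values, and 50% of those tested passed. All 36 listed genes were tested, 33 were lower, 17 passed as lower (12, 10, 11 and 2) and 1 as higher (0, 0, 0 and 0), and the median was -0.48. Cd8a, the coreceptor used for the sort, was at 1188 and 1349 CPM in the WT libraries, 1018 and 1192 in STAT3ko, and 597 and 598 in STAT3ko PD-1ko, with log2 fold change -1.09 ± 0.12, adjusted p = 0.00414, and Cd8b1 fell by about as much (-0.87). For Cd8a the STAT3ko libraries were close to the WT range, and both STAT3ko PD-1ko libraries stood apart from the other 4. Rasgrp1 (-1.05), which activates Ras, the kinases Fyn (-0.81) and Lck (-0.46), the adaptor Lat (-0.62), the CD3 chains Cd247 (-0.64) and Cd3d (-0.67) and the phosphatase Ptprc (-0.63) fell. Cblb, an E3 ligase that restrains TCR signaling, rose from 450.1 and 459 to 557 and 646 CPM (log2 fold change 0.40 ± 0.11, adjusted p = 0.0492).

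Costimulatory receptors and ligands moved in both directions. All 23 listed were tested, 6 fell (6, 3, 4 and 0) and 4 rose (4, 2, 3 and 0), with a median of -0.37 (-0.17 with WT replicate 1 left out). Icos was at 684 and 532 CPM in WT, 413 and 275 in STAT3ko and 284 and 262 in STAT3ko PD-1ko libraries (log2 fold change -1.16 ± 0.21, adjusted p = 0.0139), so that STAT3ko replicate 2 lay within the STAT3ko PD-1ko range. Slamf7 (-1.19), Cd86 (-1.12) and Tnfrsf25 (-3.40), the death receptor DR3, fell as well. Tnfrsf4, which encodes OX40, rose from 32.3 and 23.6 to 55.3 and 50.4 CPM (log2 fold change 0.92 ± 0.22, adjusted p = 0.029) and its ligand Tnfsf4 from 0.488 and 0.201 to 2.75 and 2.98 CPM (log2 fold change 3.06 ± 0.48, adjusted p = 0.00954). Tnfrsf8, which encodes CD30, rose from 7.99 and 7.44 to 16.02 and 19.6 CPM (log2 fold change 1.21 ± 0.19, adjusted p = 0.00954) and the CD27 ligand Cd70 from 0.488 and 0.241 to 2.49 and 3.35 CPM (log2 fold change 2.998 ± 0.44, adjusted p = 0.00827). Among 33 of 34 BCL2 family and death receptor genes tested, 4 fell (2, 1, 1 and 1) and none rose, with a median of -0.23 (-0.14 with STAT3ko PD-1ko replicate 2 left out). Bcl2, the survival factor of lymphocytes, was at 277 and 239 CPM in the WT libraries, 237 and 247 in STAT3ko, and 107 and 94.4 in STAT3ko PD-1ko, with log2 fold change -1.36 ± 0.13, adjusted p = 0.00259, and Fas (-1.37), Casp6 (-0.65) and Ripk3 (-0.48) were the others. Only the STAT3ko PD-1ko libraries were low for Bcl2.

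Cytokine receptors and JAK kinases, through which STAT proteins are activated, were also lower for the most part. Of 33 listed, 28 were tested, 21 were lower, 10 fell (8, 8, 6 and 0) and 3 rose (2, 2, 2 and 0); the median was -0.39. Il27ra, a receptor that signals through STAT3, was at 104 and 97.7 CPM in WT, 85.1 and 101 in STAT3ko and 56.8 and 50.8 in STAT3ko PD-1ko libraries (log2 fold change -0.91 ± 0.13, adjusted p = 0.00849). Ifnar2 (-0.91), Il21r (-0.80), Jak1 (-0.71) and the common γ chain Il2rg (-0.63) fell. Jak3 was at 223 and 256 CPM in WT, and at 141 and 150.3 in STAT3ko and 132 and 136 in STAT3ko PD-1ko libraries (log2 fold change -0.84 ± 0.12, adjusted p = 0.00756), with no difference detected between the latter groups (-0.12 ± 0.12, adjusted p = 0.49). Il1r1, the signaling IL-1 receptor, was at 3.55 and 7.56 CPM in WT and under 0.2 CPM in all 4 STAT3ko and STAT3ko PD-1ko libraries (log2 fold change -5.17 ± 0.56, adjusted p = 0.00413). Il1r2, the decoy receptor, rose from 6.30 and 10.7 to 25.3 and 29.5 CPM (log2 fold change 1.69 ± 0.26, adjusted p = 0.00926), and Il12rb2 (0.45) and Csf2rb (4.05) rose as well. Csf2rb had a mean log2 CPM under 3, and its log2 fold change ran from 3.30 to 5.88 without 1 library in turn.

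The STAT family and the genes that STAT proteins induce as feedback were lower in 17 of 19 members, all tested, against 6005 of all 12002 genes tested. The 21.1% of the list called was close to the 17.2% of all genes tested, and nothing is read from that count. 4 passed as lower (3, 3, 3 and 0) and none as higher, with a median of -0.39 (-0.18 with WT replicate 1 left out). Bcl3 was at 26.1 and 35.3 CPM in the WT libraries, 10.99 and 9.56 in STAT3ko, and 10.5 and 11.8 in STAT3ko PD-1ko, with log2 fold change -1.46 ± 0.20, adjusted p = 0.00696, and its level was about the same in both groups that lack Stat3. Cish, a SOCS family inhibitor of cytokine and TCR signaling, was at 83.9 and 57.9 CPM in the WT libraries, 61.9 and 62.4 in STAT3ko, and 33.02 and 26.7 in STAT3ko PD-1ko, with log2 fold change -1.25 ± 0.20, adjusted p = 0.00999, and here only the STAT3ko PD-1ko libraries were low. Pim2 (-0.95) and Socs1 (-0.77) fell. Socs3, the classic STAT3 feedback gene, was at 139 and 62.8 CPM in the WT libraries, 85.9 and 27.7 in STAT3ko, and 45.9 and 21.3 in STAT3ko PD-1ko. Replicate 1 was above replicate 2 in each group. The STAT3ko libraries overlapped both other groups, which did not overlap each other. The difference did not pass in the reported fit (log2 fold change -1.59 ± 0.61, adjusted p = 0.116), but did with the replicate block (-1.58, adjusted p = 0.00294). With about the same fold change, Socs3 passed as lower with all genes of at least 1 count (adjusted p = 0.0288), in the fit of the 4 libraries alone (0.029) and without STAT3ko replicate 1 (0.0299) or 2 (0.0292).

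The promoters of these feedback genes were searched for the STAT motif TTCNNNGAA, which reads the same on both strands, in the 300 bases that RefSeq (GRCm38.p6) gives from 250 before to 50 after each gene start. Among the feedback genes named by rule, Socs3 and Cish held it, and Socs1, Bcl3 and Pim1 did not. The stretch around it is shown 5′ to 3′ on the strand of the gene, with the motif in capitals, at chr11:117969467-117969565 (minus strand) for Socs3 and chr9:107296614-107296683 (plus strand) for Cish.
Socs3: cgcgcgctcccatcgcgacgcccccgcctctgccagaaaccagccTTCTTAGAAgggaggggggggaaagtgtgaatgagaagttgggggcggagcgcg
Cish: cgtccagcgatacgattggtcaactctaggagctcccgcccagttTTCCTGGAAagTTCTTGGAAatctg
The Socs3 motif begins 154 bases before the listed gene start, and the Cish motifs begin 0 and 11 bases after it. The motif was found in 61 of 841 promoters of genes that passed as higher (7.25%), 70 of 768 of genes that passed as lower (9.11%), 799 of 9519 of all genes tested (8.39%) and 2726 of all 32851 listed (8.3%). A match is a description of the sequence and not a site of binding.

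Of the interferon-stimulated genes tested, 27.1% passed in STAT3ko PD-1ko against WT CD8+ T cells, all as lower. Without WT replicate 2, calls went both ways. Of 50 listed, 48 were tested, 40 were lower, 13 fell (13, 9, 9 and 1) and none rose, with a median of -0.46. Ifit1, an inhibitor of viral translation, was at 6.92 and 7.85 CPM in the WT libraries, 9.10 and 10.7 in STAT3ko, and 1.91 and 1.28 in STAT3ko PD-1ko, with log2 fold change -2.21 ± 0.27, adjusted p = 0.00511. Xaf1 was at 115 and 126 CPM in the WT libraries, 159.6 and 179 in STAT3ko, and 52.4 and 52.2 in STAT3ko PD-1ko, with log2 fold change -1.20 ± 0.12, adjusted p = 0.00312. For both, the STAT3ko libraries were the highest and STAT3ko PD-1ko the lowest. Ifit3 (-2.84), Ifitm1 (-1.94), Mx1 (-1.26), Zbp1 (-1.18), Ddx58 (-0.93), which encodes the RNA sensor RIG-I, and Irf7 (-0.77) fell too. Genes of MHC and antigen processing did not move one way. Of 27 listed, 25 were tested, 2 fell (2, 0, 0 and 0), 2 rose (2, 0, 0 and 0), and the median of -0.02 (-0.10 with WT replicate 1 left out, 0.04 with WT replicate 2 left out, 0.04 with STAT3ko PD-1ko replicate 1 left out and -0.12 with STAT3ko PD-1ko replicate 2 left out) turned to 0.05 with scaling by library totals. Nlrc5, the transactivator of MHC class I, fell from 540.1 and 658 to 369.9 and 350.2 CPM (log2 fold change -0.74 ± 0.16, adjusted p = 0.0235), as did the nonclassical class I gene H2-T23 (-0.59), and the lectin chaperones Canx (0.58) and Calr (0.63, 0.40 without WT replicate 2) rose.

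DNA replication genes were higher throughout. All 48 listed were tested and all 48 were higher, 34 passed as higher (28, 7, 11 and 1) and none as lower, with a median of 0.64; only 1 passed without STAT3ko PD-1ko replicate 2. Mcm10, which helps activate the replicative helicase, was at 63.3 and 59.5 CPM in the WT libraries, 80.2 and 76.6 in STAT3ko, and 121 and 123 in STAT3ko PD-1ko, with log2 fold change 0.995 ± 0.11, adjusted p = 0.00438. Lig1, which joins Okazaki fragments, was at 264 and 201 CPM in WT, 337 and 271 in STAT3ko and 425 and 466 in STAT3ko PD-1ko libraries (log2 fold change 0.94 ± 0.17, adjusted p = 0.014). Rrm2, the inducible subunit of ribonucleotide reductase, was at 209.6 and 196, 277 and 282 and 311 and 291 CPM in the same order (log2 fold change 0.57 ± 0.10, adjusted p = 0.0147). For these 3 genes the STAT3ko libraries lay above WT and below STAT3ko PD-1ko. Pole (0.92), the leading-strand polymerase, Mcm5 (0.77), Cdc6 (0.75) and Dscc1 (0.99) rose as well.

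Mitotic genes that passed in the reported fit were all higher, while without WT replicate 2 calls were on the lower side only. All 50 listed were tested, 48 were higher, 13 rose (6, 0, 1 and 0) and none fell, with a median of 0.38. Relative to the WT mean, the median level of the list was 0.49 and 0.37 in STAT3ko and 0.44 and 0.34 in STAT3ko PD-1ko libraries (log2), so that these groups overlapped. Mki67, the proliferation marker Ki-67, was at 2199 and 1916 CPM in the WT libraries, 3033 and 2809 in STAT3ko, and 3061 and 3001 in STAT3ko PD-1ko, with log2 fold change 0.56 ± 0.10, adjusted p = 0.0136; between the groups that lack Stat3 the difference was 0.05 ± 0.10 (adjusted p = 0.74). Bub1 (0.69), Plk1 (0.65) and Ccnb1 (0.54) rose. Of 24 G1 cyclins, E2F factors and CDK inhibitors, 23 were tested, 10 rose (4, 1, 4 and 0) and 2 fell (2, 2, 2 and 0), with a median of 0.41. Ccne1 was at 50.5 and 58.2 CPM in WT and 97.2 and 103 in STAT3ko PD-1ko libraries (log2 fold change 0.88 ± 0.13, adjusted p = 0.00856), Cdc25a and Cdk4 rose (0.87 and 0.67), and the inhibitor Cdkn2a rose from a low level (1.41). The members that fell were the CDK inhibitors Cdkn1b (-0.78), which encodes p27, and Cdkn2d (-0.91), which encodes p19.

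**Figure D3:**
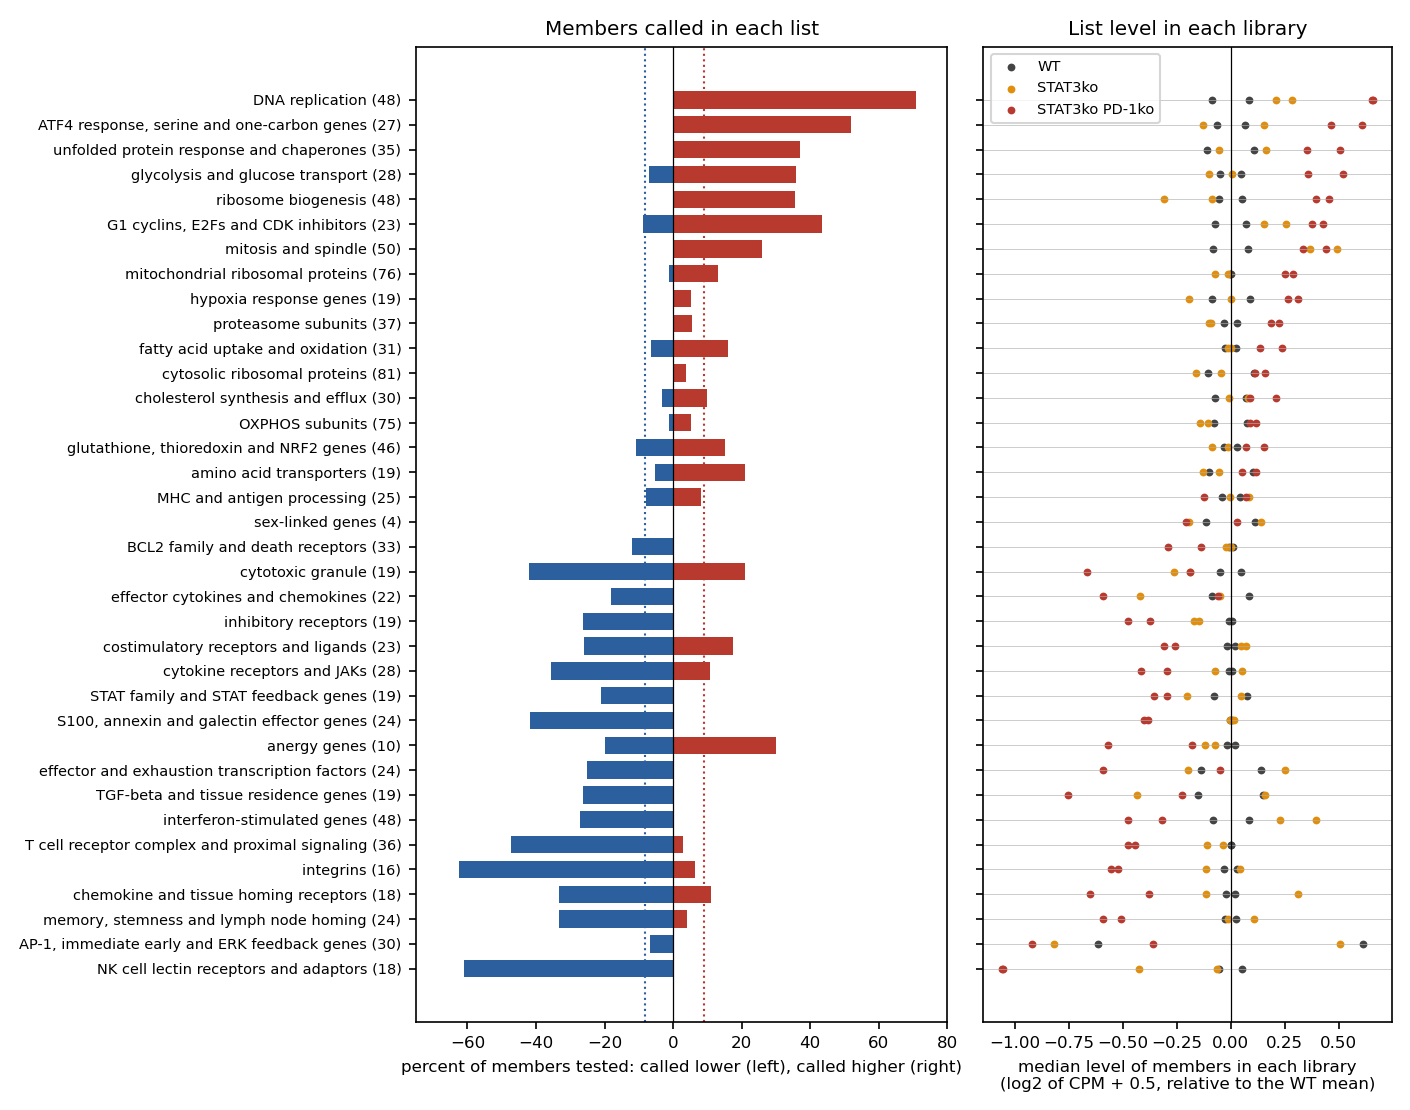
Left, the percent of tested members of each of 36 gene lists (number tested in parentheses) that passed as lower (blue, to the left) or higher (red, to the right) in STAT3ko PD-1ko against WT CD8+ T cells; dotted lines mark the 8.21% and 9.01% of all genes tested. Right, the median level of the members in each of the 6 libraries (log2 of CPM + 0.5 relative to the WT mean), with DNA replication at the top, near 0.65 in both STAT3ko PD-1ko libraries, and NK cell receptors at the bottom, near -1.06.

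Genes of the ATF4 response and of serine and one-carbon metabolism that passed in the reported fit were all higher. Calls went both ways without WT replicate 2 and without STAT3ko PD-1ko replicate 1. Of 32 listed, 27 were tested, 21 were higher, 14 rose (11, 2, 8 and 0) and none fell; the median was 0.53. Asns, asparagine synthetase, was at 17.0 and 16.3 CPM in the WT libraries, 16.1 and 8.61 in STAT3ko, and 47.4 and 63.7 in STAT3ko PD-1ko, with log2 fold change 1.74 ± 0.29, adjusted p = 0.0111. Shmt1 and Shmt2, which move 1-carbon units from serine to folate, were at 38.5 and 29.8 and 112 and 95.6 CPM in WT and 76.7 and 84.2 and 182 and 236 CPM in STAT3ko PD-1ko libraries, log2 fold changes of 1.24 and 1.01. Psat1 (0.82) and Phgdh (0.85), which make serine, and Mthfd1 (0.999) rose too. For Asns, both STAT3ko libraries were below the WT level and both STAT3ko PD-1ko libraries above it. Of 23 amino acid transporters 19 were tested, 4 rose (4, 1, 2 and 0), 1 fell (1, 1, 1 and 0) and the median was 0.05 (0.20 with WT replicate 1 left out, 0.01 with WT replicate 2 left out and 0.10 with STAT3ko PD-1ko replicate 1 left out). Slc7a5, the transporter of large neutral amino acids, was at 152 and 107 CPM in WT and 226 and 294 in STAT3ko PD-1ko libraries (log2 fold change 1.001 ± 0.28, adjusted p = 0.0476), Slc43a3 rose (0.98) and Slc43a2 fell (-0.99).

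Most of the glycolysis genes that passed were higher, and 2 genes for glucose entry and flux fell. All 28 genes of the list were tested, 19 were higher, 10 rose (8, 2, 7 and 2) and 2 fell (1, 1, 1 and 0), with a median of 0.48. Tpi1, triosephosphate isomerase, was at 128 and 121 CPM in the WT libraries, 138 and 115 in STAT3ko, and 311 and 326 in STAT3ko PD-1ko, with log2 fold change 1.35 ± 0.13, adjusted p = 0.00259. Ldha, which makes lactate, was at 689 and 621 CPM in WT, 581 and 503 in STAT3ko and 1054 and 1153 in STAT3ko PD-1ko libraries (log2 fold change 0.75 ± 0.12, adjusted p = 0.00944). The STAT3ko libraries overlapped WT for Tpi1 and lay below WT for Ldha. Eno3 (1.24), Eno1 (0.79), Aldoa (0.75) and Pkm (0.68) rose, and the glucose transporter Slc2a3 (-0.85) and Pfkfb3 (-0.54), a regulator of phosphofructokinase, fell. Of 22 hypoxia response genes 19 were tested and 1, P4ha2, passed as higher, from 0.0444 and 0.121 to 1.42 and 2.03 CPM (0, 1, 0 and 0), with a median of 0.25 (0.12 with WT replicate 2 left out).

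Redox and fatty acid genes were called in both directions, at 26.1% of the redox and 22.6% of the fatty acid genes tested. The 13.3% of cholesterol genes called lay below the 17.2% of all genes tested. Of 52 genes of glutathione, thioredoxin and NRF2 metabolism, 46 were tested, 7 rose (3, 2, 2 and 0), 5 fell (2, 2, 0 and 0) and the median was 0.09 (0.14 with WT replicate 1 left out, 0.14 with WT replicate 2 left out and 0.15 with STAT3ko PD-1ko replicate 1 left out). The factor Nfe2l2 itself, which encodes NRF2, fell from 39.8 and 31.1 to 20.3 and 17.6 CPM (log2 fold change -0.90 ± 0.18, adjusted p = 0.0179), while the glutathione transferases Gsto1 (1.04) and Gstm1 (1.65), the peroxiredoxin Prdx4 (0.74) and thioredoxin, Txn1 (0.40), rose. Of 37 fatty acid genes 31 were tested, 5 rose (1, 0, 1 and 0), 2 fell (0, 1, 0 and 0) and the median was 0.18. The uptake genes Cd36 (1.86) and Fabp5 (1.004) rose, and Cpt1a (-0.62) and Slc25a20 (-0.59), which carry fatty acids into mitochondria, fell. Of 31 cholesterol genes 30 were tested, 3 rose (2, 1, 1 and 0) and 1 fell (1, 0, 0 and 0), with a median of 0.10 (0.23 with WT replicate 1 left out, 0.03 with WT replicate 2 left out and 0.20 with STAT3ko PD-1ko replicate 2 left out). The gene that fell was the efflux pump Abcg1 (-0.59), which did not pass when any 1 of these 4 libraries was left out.

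In the lists of ribosome biogenesis and of protein folding, every gene that passed was higher. All 48 ribosome biogenesis genes were tested, 47 were higher, 17 rose (7, 1, 4 and 0) and none fell, with a median of 0.44. Npm1, a nucleolar chaperone, was at 212 and 217 CPM in the WT libraries, 223 and 189 in STAT3ko, and 428 and 369 in STAT3ko PD-1ko, with log2 fold change 0.89 ± 0.13, adjusted p = 0.0081. Ncl (0.64), Fbl (1.003), which methylates ribosomal RNA, Polr1b (0.71), a subunit of RNA polymerase I, Gar1 (0.99) and Dkc1 (0.84) rose. All 35 genes of the unfolded protein response and of chaperones were tested, 26 were higher, 13 rose (9, 1, 2 and 0) and none fell, with a median of 0.50 (0.31 with WT replicate 2 left out). Hsp90ab1, among the 10 most abundant genes, was at 1947 and 1554 CPM in the WT libraries, 2146 and 1602 in STAT3ko, and 3178 and 3854 in STAT3ko PD-1ko, with log2 fold change 1.01 ± 0.18, adjusted p = 0.0135, both STAT3ko PD-1ko libraries being above the other 4. Hsp90aa1 (0.86), the mitochondrial chaperonin Hspd1 (0.89) and Pdia6 (0.91), which forms disulfide bonds, rose. In both lists no member passed without STAT3ko PD-1ko replicate 2.

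Among structural subunits tested, whether or not they passed, the fitted value was higher for 64 of 81 cytosolic and 64 of 76 mitochondrial ribosomal proteins, 32 of 37 proteasome and 55 of 75 OXPHOS subunits. Among all genes tested it was higher for 5997 of 12002. Of 85 cytosolic ribosomal proteins 81 were tested and 3 rose (0, 1, 1 and 0), with a median of 0.14 (0.06 with WT replicate 1 left out, 0.22 with WT replicate 2 left out and 0.07 with STAT3ko PD-1ko replicate 1 left out). Of 78 mitochondrial ribosomal proteins 76 were tested, 10 rose (1, 0, 3 and 0) and 1, Mrpl58, fell (0, 0, 0 and 0), with a median of 0.28. Mrps27 rose most among the members whose mean log2 CPM was 3 or more (0.91). Of 39 proteasome subunits 37 were tested and 2, Psmd1 and Psmd2, rose (1, 0, 0 and 0), with a median of 0.21. Of 76 OXPHOS subunits 75 were tested, 4 rose (2, 0, 0 and 0) and 1 fell (0, 0, 0 and 0); the median was 0.10 (-0.02 with WT replicate 1 left out and 0.20 with WT replicate 2 left out). Sdha (0.65) and Atp5b (0.63) were among those that rose, and Cox7a2l (-0.47) was the one that fell.

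Further lists of effector and tolerance genes were lower or mixed. Of 25 S100, annexin and galectin genes, 24 were tested, 20 were lower, 10 fell (7, 3, 4 and 1) and none rose, with a median of -0.40. S100a6, a calcium-binding protein of activated cells, was at 826 and 940.3 CPM in the WT libraries, 694 and 739.7 in STAT3ko, and 410.0 and 373 in STAT3ko PD-1ko, with log2 fold change -1.17 ± 0.11, adjusted p = 0.00277, and S100a4 (-1.21), Lgals3 (-0.54) and Ahnak (-0.51) fell; for Ahnak the STAT3ko libraries, at 4122 and 4606 CPM, were far above WT, at 2658 and 2669.8 CPM. Of 21 genes of TGF-β signaling and tissue residence 19 were tested, 5 fell (3, 5, 3 and 1) and none rose, with a median of -0.44 (-0.03 with WT replicate 1 left out, -0.81 with WT replicate 2 left out and -0.77 with STAT3ko PD-1ko replicate 1 left out). Tgfbr2 fell from 279.7 and 277 to 158 and 165 CPM (log2 fold change -0.78 ± 0.10, adjusted p = 0.00595), and its effector Smad3 (-1.03), Rgs10 (-1.85) and Ahr (-1.22, -0.64 without WT replicate 1) fell too. Calls of this list went both ways without WT replicate 1. Of 11 anergy genes 10 were tested, 3 rose (2, 1, 1 and 1) and 2 fell (1, 1, 2 and 1); the median was -0.42 (0.07 with WT replicate 1 left out). Ndrg1, a factor of clonal anergy, was at 52.6 and 52.6 CPM in the WT libraries, 50.7 and 42.2 in STAT3ko, and 137 and 129.7 in STAT3ko PD-1ko, with log2 fold change 1.34 ± 0.13, adjusted p = 0.00278, the E3 ligases Nedd4 (0.66) and Itch (-0.54) moved in opposite directions, and Cd38 fell (-1.71).

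Immediate early genes varied widely between pools of the same genotype. All 30 genes of AP-1, immediate early and ERK feedback were tested, 28 were lower, and yet 2 passed (2, 1, 0 and 0), Ier3 (-1.12), which passed in none of these fits without 1 library, and Egr3 (-0.90), which passed in the one without WT replicate 1; the median was -0.90 (0.06 with WT replicate 1 left out). Nr4a1, which TCR signaling induces within an hour, was at 258 and 26.03 CPM in the WT libraries, 257 and 28.7 in STAT3ko, and 93.1 and 36.4 in STAT3ko PD-1ko, and Fos at 144 and 46.8 CPM in the WT libraries, 162 and 62.3 in STAT3ko, and 64.5 and 20.2 in STAT3ko PD-1ko. Replicate 1 was above replicate 2 in every group for both genes, and the WT range took in the STAT3ko PD-1ko libraries for Nr4a1. With the replicate block Fos passed as lower (log2 fold change -1.18, adjusted p = 0.00311). Relative to the WT mean, the median level of the list was 0.61 and -0.61 in the WT libraries, 0.51 and -0.82 in STAT3ko, and -0.36 and -0.92 in STAT3ko PD-1ko libraries (log2). Of the 5 sex-linked genes listed as a check on the pools, 4 were tested and none passed. Rn45s, the ribosomal RNA precursor and the gene with the highest CPM, ranged from 16362 and 7479.8 CPM in WT to 6662 and 8255 in STAT3ko PD-1ko libraries and did not pass (adjusted p = 0.188), although it did without WT replicate 2 (adjusted p = 0.0103).

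The STAT3ko CD8+ T cells came from donors without the PD-1 deletion. Rbm44, near Pdcd1, was read in these cells but not in STAT3ko PD-1ko cells, as given below. Against STAT3ko cells, 2017 genes passed (16.8% of the genes tested), 1051 higher and 966 lower in STAT3ko PD-1ko cells. The count was 1194 without STAT3ko replicate 1, 461 without STAT3ko replicate 2, 1034 without STAT3ko PD-1ko replicate 1 and 2 without STAT3ko PD-1ko replicate 2. The comparison shares the STAT3ko PD-1ko libraries with that against WT, so that values are given side by side only. The log2 fold changes against STAT3ko and against WT were -3.26 and -3.97 for Itgax, -2.79 and -3.80 for Ccr2, -0.92 and -2.000 for Gzma, 4.27 and 3.59 for Ctse, and 2.17 and 1.74 for Asns, and each passed in both. They were -2.42 and -1.88 for Ccl5 and -1.69 and -1.20 for Xaf1, genes for which the STAT3ko libraries were above WT. Against STAT3ko, no difference was detected for Stat3 (0.47, adjusted p = 0.141), Gzmb, Bcl3 (0.12 ± 0.20, adjusted p = 0.703), Il17a (-0.12 ± 0.77, adjusted p = 0.929) or Mki67. For the last 4 genes the libraries of the 2 groups overlapped, while for Stat3 both STAT3ko PD-1ko libraries, at 154 and 238 CPM, were above both STAT3ko libraries, at 148 and 136 CPM.

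Whether the change in CD8+ T cells differed from that in CD4+ T cells of the same livers was tested as an interaction over all 12 libraries. At an adjusted p under 0.05, 1 of 12334 genes passed (0.00811%), which was Ccl5, while 547 were under an unadjusted p of 0.05 and DESeq2 called 75. CD4+ and CD8+ T cells of the same genotype and replicate number were taken to come from the same pool, which no label states. With the pool as a block 84 genes passed (0.681%). Of these, 38 had a more positive change in CD8+ and 46 a more positive change in CD4+ T cells. Ccl5 in CD4+ T cells was at 46.9 and 53.4 CPM in WT and 68.9 and 71.2 CPM in STAT3ko PD-1ko libraries, a log2 fold change of 0.48 against -1.88 in CD8+ T cells, and the difference was -2.35 (adjusted p = 0.00101 with the pool as a block). The STAT3ko PD-1ko pools were thus the lower ones in CD8+ and the higher ones in CD4+ T cells. Tcf7, the factor of stem-like T cells, was at 131 and 188 CPM in WT and 17.98 and 24.9 CPM in STAT3ko PD-1ko libraries in CD4+ T cells, where it fell, and its log2 fold change there was below that in CD8+ T cells, where it did not pass (difference 2.14, adjusted p = 0.00513). Tnfrsf4, which rose in CD8+ T cells, was at 182 and 151 CPM in WT and 127 and 109 CPM in STAT3ko PD-1ko libraries in CD4+ T cells (log2 fold change -0.50, difference 1.44, adjusted p = 0.00488). Eomes was at 3.40 and 2.87 CPM in WT and 7.78 and 8.76 CPM in STAT3ko PD-1ko libraries in CD4+ T cells (1.40, against -0.49 in CD8+ T cells; difference -1.89, adjusted p = 0.0127), and Prf1 at 71.7 and 81.2 CPM in WT and 166 and 109 CPM in STAT3ko PD-1ko libraries (difference -1.11, adjusted p = 0.0253). Mamdc2 rose in both subsets, from 0.0893 and 0.0844 to 16.98 and 17.2 CPM in CD4+ T cells, with a smaller fitted change in CD8+ T cells (difference -3.29, adjusted p = 0.047). The WT CD4+ libraries held few reads of Mamdc2, so the size of its difference is uncertain.

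**Figure D4:**
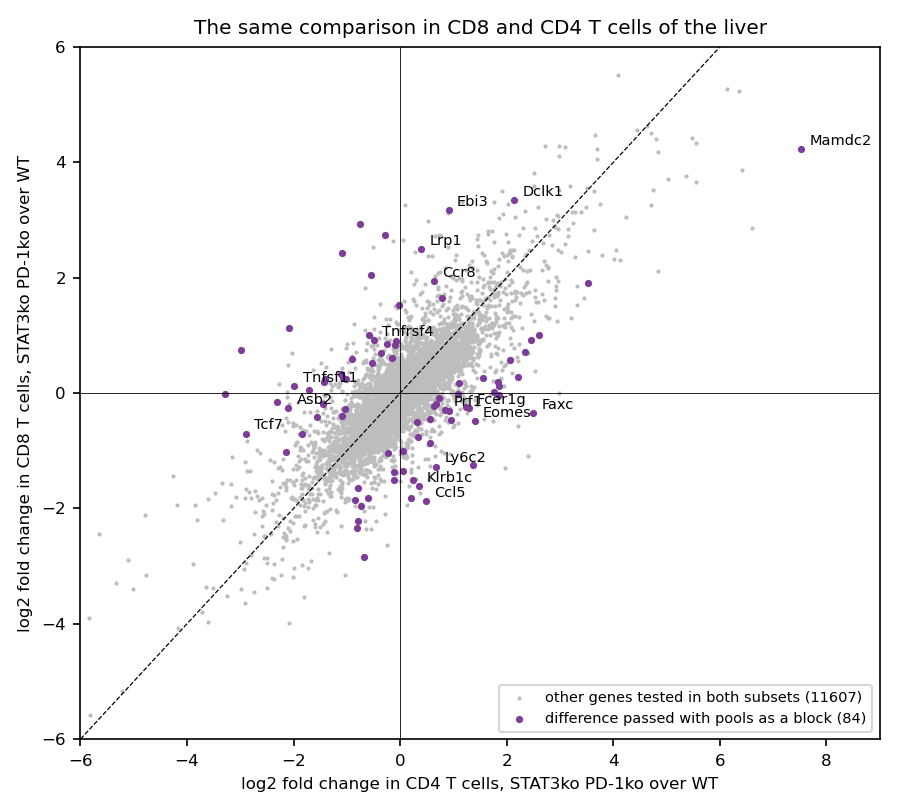
Each point is 1 of the 11691 genes tested in both subsets. The x axis is the log2 fold change of STAT3ko PD-1ko over WT in CD4+ T cells and the y axis that in CD8+ T cells of the liver. Any gene beyond the limits of the axes is counted but not drawn. Purple points are the 84 genes whose difference between the subsets passed with the pool of recipients as a block, and points below the dashed line of equal change, such as Ccl5, have the lower value in CD8+ T cells.

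Other genes near the targeted loci can differ between donor strains. Within 5 Mb of Pdcd1 on chromosome 1, 42 genes were tested and 11 passed (26.2%), 6 higher and 5 lower, and within 5 Mb of Stat3 on chromosome 11, 154 were tested and 32 passed (20.8%), 18 higher and 14 lower, against 17.2% of all genes. Rbm44, near Pdcd1, was at 2.09 and 4.10 CPM in WT and 4.85 and 6.38 in STAT3ko libraries, had no read in either STAT3ko PD-1ko library, and was at least 24-fold lower against a floor of 3 counts per library. Ano7 (4.63), Ramp1 (2.32), Pask (0.77), Hdlbp (0.71), Ppp1r7 (0.66) and Dtymk (0.53) were higher and D2hgdh (-0.82), St8sia4 (-1.46), Hdac4 (-0.54) and D1Ertd622e (-0.78) were lower. Near Stat3, Itgb3, Cdc6 and Ikzf3 were among the genes that passed, together with Mrc2 (4.78), Tanc2 (1.91), Grb7 (1.72), Brca1 (0.79), Jup (-1.31) and Rara (-0.68). Whether sequence carried along with the targeted alleles has a part in these differences was not tested.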

How the data were processed

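Donor T cells sorted from the liver were measured by RNA sequencing in 12 libraries, mapped to group and replicate from the sample titles. According to the study's methods, the authors aligned reads to mm10 (GRCm38 in the labels' processing notes) with STAR and used HTSeq-count with RefSeq genes for the counting. The authors deposited whole-number counts per gene for 25078 genes and RPKM (reads scaled to exon length and library size) computed from them, with positions and exon lengths. The counts hold no rows of unassigned reads, 26 gene names were turned into dates by a spreadsheet and 4 names are duplicated, and these were kept as they stand. The labels also carry a culture protocol for an adipogenic cell line and name a library kit other than that of the study's methods; neither was used. A strand setting of the counting is not given in the sources used here.

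Counts of the 6 CD8+ libraries were filtered with filterByExpr and scaled by TMM, and STAT3ko PD-1ko was compared with WT and with STAT3ko by edgeR 4.0.16 (R 4.3.3), quasi-likelihood F-test, with Benjamini-Hochberg adjustment over all genes tested and a threshold of 0.05. The CD8+ minus CD4+ difference was tested over all 12 libraries. Tests ran on simulated counts with known changes first. Each gene list was described by the number of members called and by its median, with no set test. For 2 against 2 libraries an exact permutation test cannot go below p = 0.333 and was not used. RPKM were used for levels between genes and for limma 3.58.1 on log2(RPKM + 1) and log2(RPKM + 0.1); DESeq2 1.42.0 was a further alternative. Replicates of a group differed by far more than counting error (chi-square per degree of freedom 55.93, 44.97 and 28.92 for WT, STAT3ko and STAT3ko PD-1ko), so no 2 of them agreed within sampling noise, which does not show that they are independent. Promoter sequences are from RefSeq, GRCm38.p6.

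Named genes were Stat3 and Pdcd1, the 12 largest rises and 12 largest falls among genes whose mean log2 CPM was 3 or more and whose groups did not overlap, preset anchors of each list with the 2 largest rises and falls called in it, the 5 largest differences between subsets in each direction, the 10 most abundant genes and genes within 5 Mb of the targeted loci. Other members of the lists were picked as examples with their values in view, and a few genes that the rule names are not reported here. The lists and the comparison itself were chosen with earlier results of these data known.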

Additional observations from a re-analysis of the deposited data

Results flagged for a closer look

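The change from WT to STAT3ko PD-1ko differed between CD8+ and CD4+ T cells for 1 gene, Ccl5, in the test of that difference over the 12 libraries, and for 84 genes with the pool of recipients as a block. With the block, genes with the more positive change in CD8+ T cells included Ebi3, a subunit of IL-27 and IL-35 (difference of log2 fold changes 2.28, adjusted p = 0.0249), Tcf7 (2.14, adjusted p = 0.00513), Tnfsf11, the RANK ligand (2.11, adjusted p = 0.0075), Lrp1 (2.05, adjusted p = 0.00735), Asb2 (1.85, adjusted p = 0.0162), Tnfrsf4 (1.44, adjusted p = 0.00488), Ccr8 (1.34, adjusted p = 0.0269) and Dclk1 (1.23, adjusted p = 0.0249).

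Genes with the more positive change in CD4+ T cells included Mamdc2 (-3.29, adjusted p = 0.047), Faxc (-2.85, adjusted p = 0.003), Ccl5 (-2.35, adjusted p = 0.00101), Ifit1bl1 (-2.01, adjusted p = 0.0321), Klrb1c (-1.97, adjusted p = 0.0187), Ly6c2 (-1.91, adjusted p = 0.0249), Eomes (-1.89, adjusted p = 0.0127), Tanc2 (-1.61, adjusted p = 0.0162) and Prf1 (-1.11, adjusted p = 0.0253). Without the block, Ccl5 was the one gene among these that passed. The size of the difference for Mamdc2 is uncertain, as WT CD4+ libraries held few of its reads.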

How the results depend on the processing

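The count of 2066 genes lay between 1944 and 2965 under the other scalings, filters, DESeq2, the fit of the 4 libraries alone and the replicate block, and between 111 and 1908 without 1 library, where the fewest were left without STAT3ko PD-1ko replicate 2; 791 had a change of at least 2-fold. Against STAT3ko it lay between 1895 and 2932 under the same settings and between 2 and 1878 without 1 library, and 795 changed at least 2-fold. The difference between CD8+ and CD4+ T cells was called for 1 gene, for 50 with all genes of at least 1 count, 75 with DESeq2, 28 with the replicate block and 84 with the block by pool, and for 1 to 9 without 1 library. The replicate block is not given by the labels: deviations of same-numbered CD8+ libraries correlated at r = 0.740 (WT and STAT3ko), 0.187 (WT and STAT3ko PD-1ko) and 0.0445 (STAT3ko and STAT3ko PD-1ko) across genes. With the replicate block no printed gene that passed was lost, 5 that had not passed did so, Eomes (adjusted p = 0.0389), Fasl (0.00236), Fos (0.00311), Socs3 (0.00294) and Tox (0.0274), and the median of effector transcription factors went to -0.28. The other settings in which a printed gene passed that did not in the reported fit stand beside Eomes, Fasl, Rn45s, Socs3 and Tox in the text. Leaving out a library also leaves fewer samples; other causes were not tested.

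Of the printed genes that passed, those lost with library totals alone were 9 (Abcg1, Cox7a2l, Cx3cr1, Egr3, Foxp3, Il16, Jup, Nfatc1 and Ripk3), with median-of-ratios size factors 4 (Calr, Cblb, Nfatc1 and Slc7a5), with upper quartile scaling 2 (Foxp3 and Il16), with DESeq2 1 (Jup), with all genes of at least 1 count 1 (Txn1), and in the fit of the 4 libraries alone 10 (Cblb, Ccnb1, Cox7a2l, D2hgdh, Il12rb2, Itgb7, Jup, Nfatc1, Ripk3 and Txn1). In limma, 16 (Abcg1, Ahr, Calr, Cx3cr1, Dtx4, Egr3, Foxp3, Hdac4, Il16, Irf7, Itgb7, Nfatc1, Ripk3, S1pr1, Slc7a5 and Tmsb4x) were lost on log2(RPKM + 1) and 14 (Ahr, Cx3cr1, Dtx4, Egr3, Foxp3, Hdac4, Il16, Irf7, Itgb7, Nfatc1, Ripk3, S1pr1, Slc7a5 and Tmsb4x) on log2(RPKM + 0.1). No gene that passed changed sign in a fit that tested it. Without 1 library in turn, the log2 fold change of Nr4a1 ran from -2.01 to 1.31 and that of Tnfsf11 from -0.52 to 1.24. Over the same settings the list medians that turned sign ran from -0.685 to 0.00096 for effector transcription factors, -0.125 to 0.0420 for MHC genes, -1.23 to 0.0600 for immediate early genes, -0.593 to 0.0690 for anergy genes, -0.268 to 0.0382 for sex-linked genes and -0.0185 to 0.196 for OXPHOS subunits. The MHC median also went to 0.0481 with library totals, 0.0010 with upper quartile scaling and 0.0124 with at least 10 counts in every library. With library totals the medians of redox, amino acid transporter, cholesterol, OXPHOS and sex-linked genes went to 0.157, 0.126, 0.177, 0.167 and -0.030. With all genes of at least 1 count those of redox, amino acid transporter, MHC and sex-linked genes went to 0.051, 0.084, -0.03 and -0.057, and with at least 10 counts in every library that of redox genes to 0.135. Library totals were between 21676125 and 24551477 in the CD8+ libraries, so that depth was alike, and with 2 pools a group the spread rests on 3 residual degrees of freedom.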

Other observations

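Among the 10 most abundant genes of these CD8+ T cells, 5 genes of the cytoskeleton and of translation did not pass the test and 1 fell. Actb was at 8956 and 9265 CPM in WT and 8283 and 8409 in STAT3ko PD-1ko libraries (adjusted p = 0.266), the elongation factors Eef2 at 5078 and 4467 and 4908 and 5569 CPM (adjusted p = 0.434) and Eef1a1 at 3057 and 2945 and 3134 and 3396 CPM (adjusted p = 0.364), the actin bundler Lcp1 at 3251 and 3035 and 3268 and 3395 CPM (adjusted p = 0.59) and the motor Myh9 at 4559 and 4023 and 3500.1 and 3612 CPM (adjusted p = 0.0923). Tmsb4x, which binds actin monomers, fell from 4732 and 5928 to 3537 and 2906 CPM (log2 fold change -0.73 ± 0.16, adjusted p = 0.0222).

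The marker lists of other cells held few called genes, and the part of such cells in the results was not tested. The 13 Kupffer cell and macrophage genes summed to 30.2 and 42.7 CPM in WT, 27.8 and 37.2 in STAT3ko, and 18.1 and 19.8 in STAT3ko PD-1ko libraries, most of it Cd68, the 1 member that fell (log2 fold change -0.71 ± 0.13, adjusted p = 0.0154). The 8 B cell genes summed to 25.9 and 24.9 CPM in WT, 24.8 and 28.7 in STAT3ko, and 20.4 and 20.4 in STAT3ko PD-1ko libraries, led by Cd22, and 1 member, Cd79b, fell (log2 fold change -1.18 ± 0.22, adjusted p = 0.0149). The 8 endothelial genes summed to 119 and 131 CPM in WT, 117 and 124 in STAT3ko, and 116 and 129.6 in STAT3ko PD-1ko libraries, nearly all of it Pecam1, which T cells also express, and 1 member, Egfl7, rose (log2 fold change 2.37 ± 0.32, adjusted p = 0.00651). The 5 cholangiocyte genes summed to 12.8 and 10.1 CPM in WT, 13.6 and 11.1 in STAT3ko, and 15.7 and 17.1 in STAT3ko PD-1ko libraries, led by Epcam, with Krt19 at 0, and 1 member, Spp1, the cytokine osteopontin, rose (log2 fold change 2.01 ± 0.28, adjusted p = 0.00764). The 11 neutrophil genes summed to 2.88 and 2.58 CPM in WT, 0.515 and 1.52 in STAT3ko, and 0.533 and 1.24 in STAT3ko PD-1ko libraries, with 1 member, Mmp9, called lower, and the 4 plasma cell genes to 0.533 and 0.684 CPM in WT, 0.902 and 0.865 in STAT3ko, and 1.64 and 1.74 in STAT3ko PD-1ko libraries, nearly all of it Derl3, the 1 member called higher. γδ T cell, stellate cell and erythroid genes each summed to under 1 CPM in every CD8+ library, and none of them could be tested. The γδ T cell sum covered 2 of the 5 genes listed, Blk and Sox13.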
